A study of Homo sapiens with 8 samples.

Results

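The comparison set the sulfoxide 1-SO against the sulfide 1-S, each given to MDA-MB-231 cells kept in the dark, with every compound measured against the vehicle cells of its own sequencing round. Its members are 4 of the 8 libraries of the series: vehicle dark and 1-SO dark of round 1 (cells of passage 8), and vehicle dark and 1-S dark of round 2 (cells of passage 32-34). MDA-MB-231 is an established human breast cancer line of the triple-negative, mesenchymal kind. Both compounds were present at 10 µM for 24 h, the vehicle was 1% DMSO, and the dark plate was wrapped in foil. Each group is 1 library. Dose, time and light were therefore matched for the 1 pair of compounds compared, while round and passage changed together with the compound and cannot be told apart from it.

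The name of 1-SO is (5-oxo-2-dibenzothienylmethyl)triphenylphosphonium, and that of 1-S appears in the labels as (2-dibenylthienylmethyl)triphenylphosphonium. The named difference is the oxo group on the sulfur, which 1-SO carries and 1-S lacks. The triphenylphosphonium group that both share is a lipophilic cation, and cations of this kind are drawn into mitochondria by the membrane potential. Dibenzothiophene oxides are studied as light-driven sources of an oxygen atom, so the dark libraries show what the compounds did without that trigger. Cells that meet misfolded protein or failing organelles switch on a few well known programmes. HSF1 drives cytosolic chaperones, ATF4 and DDIT3 drive the integrated stress response, XBP1 and its partners serve the endoplasmic reticulum, NFE2L2 serves redox balance, and E2F factors drive the genes of DNA replication when cells enter S phase.

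The 4 dark libraries held 17.8 to 22.6 M counted reads and the 8 libraries 15.8 to 22.6 M. The cells carried the labelled identity in part: VIM, CD44 and AXL were present in every library, ESR1, PGR and CDH1 were below 1 FPKM (counted fragments scaled by gene length and library size) in all 8, and SPARC, of the same mesenchymal list, was below 1 FPKM in all 8 as well. KRT8, KRT18, KRT19 and ERBB2 were expressed. Of the leukocyte markers 5 of 6 were below 1 FPKM throughout, of the erythroid 3 of 3 and of the endothelial 2 of 3. The summed level of the 10 mesenchymal markers was 2034 FPKM with vehicle and 2022 with 1-SO in round 1, and 1244 with vehicle and 791 with 1-S in round 2. AXL was among the lower members with 1-S, at 291 FPKM with vehicle and 149 with 1-S, and so was CAV1, at 118 and 44 FPKM. VIM was at 221 and 219 FPKM. The summed level of the 10 luminal epithelial markers was 577 FPKM with vehicle and 549 with 1-SO in round 1, and 275 with vehicle and 202 with 1-S in round 2. Whether these shifts have a part in the results below was not tested. Levels of round 1 and round 2 came from tables with different gene models, and from cells of different passage. LDHB, a member of the mesenchymal list, stood at 300.0 FPKM in the vehicle library of round 1 and 0.178 in that of round 2. The dark vehicle levels of 78 of the 12696 genes tested differed more than 10-fold between the rounds, and the cause was not tested. A level is therefore read against the vehicle of its own round, and the compounds are compared by their changes.

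Without light, 3926 genes (30.9%) passed the test against vehicle with 1-S and none did with 1-SO, and most of what separated the compounds was the response to 1-S. A gene's change is its level with compound minus its level with the dark vehicle of the same round, on the scale log2(FPKM + 1), where 1 is a doubling of a well expressed gene. Over all 12696 genes tested, the middle 90% of the changes lay between -0.19 and 0.26 with 1-SO and between -0.77 and 0.93 with 1-S. The standard deviation across genes was 0.16 for 1-SO and 0.57 for 1-S, a ratio of 3.63. The 1-S change was the larger in size in 83.3% of the genes. Across genes the changes of the 2 compounds had a Pearson r of 0.0435, a description only, since genes are not independent replicates and each round's genes share a vehicle library.

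The test of the difference was the quasi-likelihood test of edgeR on the read counts of all 8 libraries, with Benjamini-Hochberg adjustment over the 12696 genes and calls at an adjusted p under 0.05. It called 2181 genes, 17.2% of those tested: 1114 (8.77%) lower and 1067 (8.4%) higher with 1-SO than with 1-S, each relative to its vehicle. The same model called 2024 genes up (15.9%) and 1902 down (15%) with 1-S against vehicle. The number of edgeR calls for 1-SO against vehicle was 0, while 26 genes had an unadjusted p below 0.05. That is fewer than evenly spread p-values would give over 12696 genes, so the absence of calls does not show that no gene changed. DESeq2 also called 0 for 1-SO, and limma called 2. Of the 2181 genes, 2165 (99.3%) were also called for 1-S against vehicle, always with the sign opposite to the difference. The difference holds the 1-S term of the same fit with its sign turned. With 1-SO changes this small, the overlap and the signs are largely built in, and they are a description only. In 2177 of them the 1-S change was the larger in size and in 4 the 1-SO change was, and 2089 of them code for protein.

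Only the 4 vehicle libraries give the model a spread, with 1 residual degree of freedom. That spread is how far the UV-A change of vehicle cells differed between the rounds, not the spread of like libraries. The p-values assume that compound libraries vary to the same degree, and neither compound has a replicate check. The fitted vehicle level of a round also draws on its UV-A library. With each compound against its own dark vehicle alone (edgeR's likelihood ratio test with the spread of the 8-library fit), 1111 genes were called (8.75%), 609 lower (4.8%) and 502 higher (3.95%), of which 1052 are among the 2181. Counts by this comparison, which differs in both the test and the vehicle reference, are given below as "dark vehicle alone". They stand beside its own shares over all genes, 4.8% lower and 3.95% higher. All 2181 genes had the same sign in both comparisons. In bulk RNA such as this, fewer cells of a kind and less RNA per cell cannot be told apart.

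**Figure D1:**
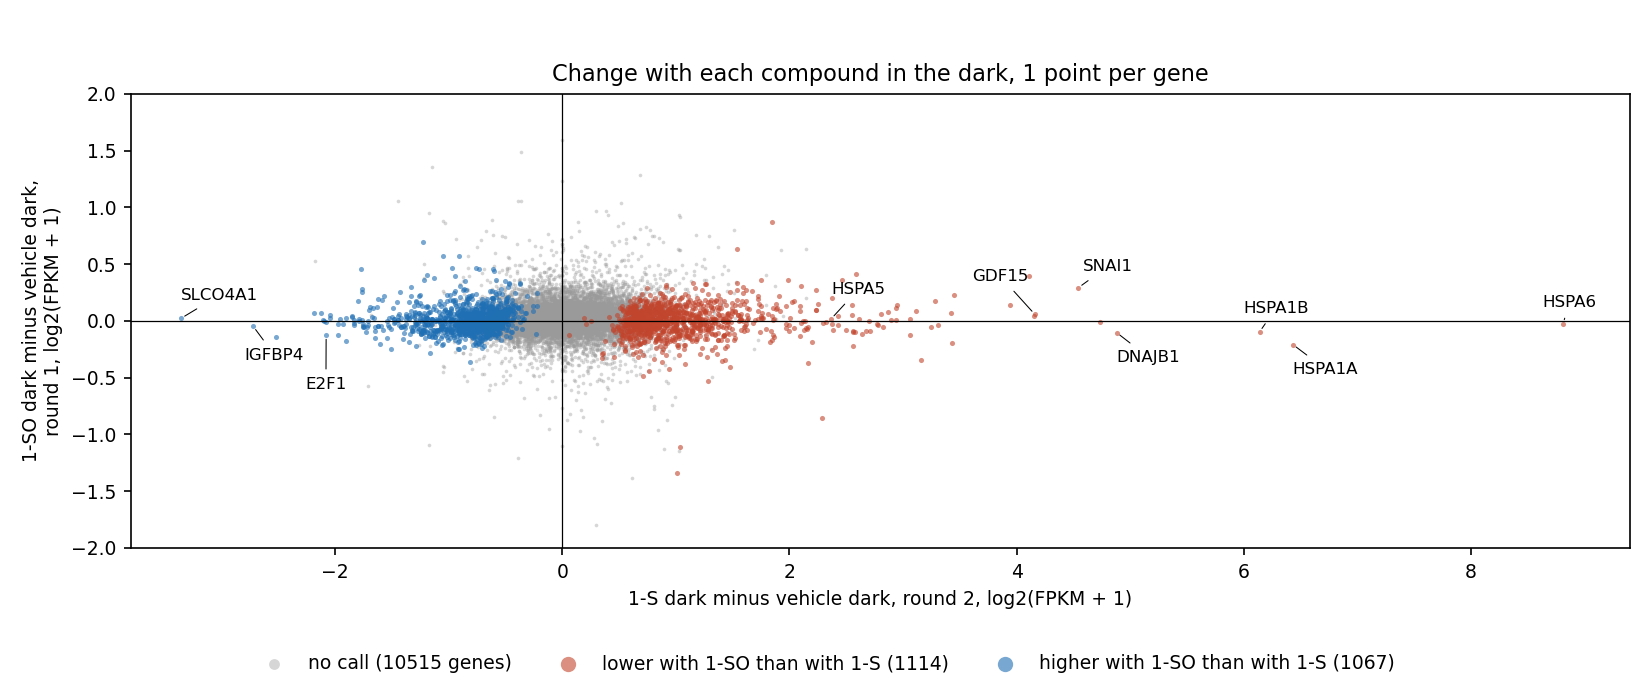
Each point is 1 of the 12696 genes tested, placed by its change on the scale log2(FPKM + 1) with 1-S (horizontal, round 2) and with 1-SO (vertical, round 1), at the same scale on both axes; red points are called lower and blue points higher with 1-SO than with 1-S by edgeR, and grey points have no call. The cloud is wide along the 1-S axis, from -3.36 to 8.81, and flat along the 1-SO axis, from -1.80 to 1.59, where the extremes are uncalled genes.

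By size alone, with no test, 837 genes (6.59%) changed by at least 1 either way with 1-S, 545 upward (4.29%) and 292 downward (2.3%). With 1-SO 20 genes (0.158%) did, 9 upward (0.0709%) and 11 downward (0.0866%). The difference between the compounds reached 1 in 902 genes (7.1%), 559 lower (4.4%) and 343 higher (2.7%) with 1-SO. The authors' deposited tables, which set single libraries against each other, hold 603 genes called higher and 247 called lower for 1-S in the dark, and 0 for 1-SO, whose smallest adjusted p is 1. Of the 1-S genes called in the authors' deposited tables, 550 were tested here and 489 were also called for the difference between the compounds.

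Over 23 gene lists, the medians of the 1-SO changes stayed between -0.09 and 0.24, and those of the 1-S changes ran from -0.94 for DNA replication to 1.48 for the ATF4 targets. The medians over all genes tested were 0.01 for 1-SO and 0.03 for 1-S. Chaperone, integrated stress, immediate early and interferon genes stood highest with 1-S, and replication, matrix and glycolysis genes lowest. With 1-SO the list farthest from 0 was that of the mRNAs encoded in mitochondria.

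**Figure D2:**
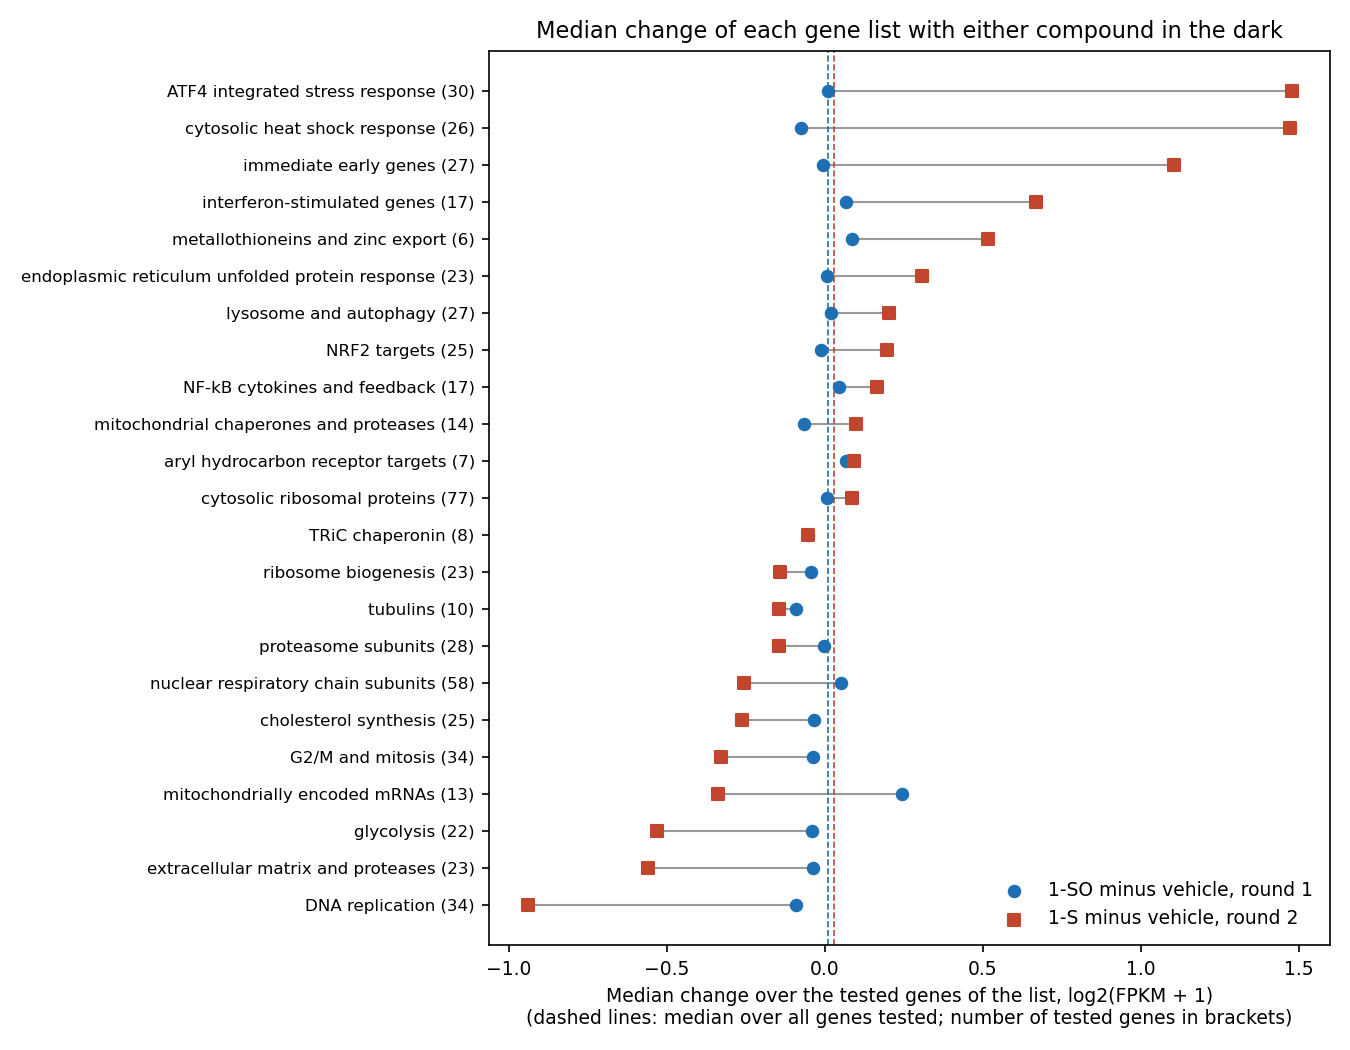
Median change of each of the 23 gene lists on the scale log2(FPKM + 1), with 1-SO as blue circles and 1-S as red squares, joined by a line; dashed lines mark the medians over all genes tested, 0.01 and 0.03. The red squares spread from -0.94 to 1.48 while the blue circles lie between -0.09 and 0.24.

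The cytosolic heat shock genes gave the largest differences between the compounds. Of 26 tested, 20 were called lower with 1-SO than with 1-S and none higher, against 8.77% lower over all genes (dark vehicle alone, 21 lower and none higher). All 26 lay above vehicle with 1-S, by a median of 1.47, and 22 passed the test against vehicle. With 1-SO the 26 changes ran from -0.21 to 0.12, with 4 above 0 and a median of -0.08.

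HSPA6 (ENSG00000173110, chr1:161524540-161526910 in GRCh38), a stress-inducible HSP70 that unstressed cells hardly make, was at 0.342 FPKM with vehicle and 0.319 with 1-SO in round 1, and 1.2 with vehicle and 987 with 1-S in round 2. The 1-S library stood far above its vehicle, while the libraries of round 1 were both below 1 FPKM. Its changes were -0.02 with 1-SO and 8.81 with 1-S, and the fitted difference was -10.86 ± 0.58 (log2, SE; edgeR adjusted p = 4.1e-13). DNAJB1 (ENSG00000132002, chr19:14514770-14529770), an HSP40 co-chaperone that hands clients to HSP70, was at 182 FPKM with vehicle and 169 with 1-SO in round 1, and 88.9 with vehicle and 2646 with 1-S in round 2. The 1-S library was far above its vehicle and the 1-SO library slightly below its own, and the fitted difference was -4.82 ± 0.40 (edgeR adjusted p = 2.3e-09). HSPA1A and HSPA1B encode the main inducible HSP70 in near-identical copies, so the split of reads between them is uncertain. HSPA1A was at 10.1 FPKM with vehicle and 8.57 with 1-SO in round 1, and 8.39 with vehicle and 810.1 with 1-S in round 2. HSPA1B was at 53.5 FPKM with vehicle and 49.97 with 1-SO in round 1, and 30.5 with vehicle and 2223 with 1-S in round 2. The fitted differences were -6.86 and -6.21, with edgeR adjusted p = 2.5e-14 and 2.9e-12. CRYAB, a small heat shock protein, had 3 reads with vehicle and 0 with 1-SO in round 1, and 1 read with vehicle and 660 with 1-S in round 2. Those few reads allow no fold, and edgeR called it lower with 1-SO (adjusted p = 3.3e-04).

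The other inducible members followed the same order at smaller size. HSPB1, a small heat shock protein that holds unfolded clients, was at 87.3 FPKM with vehicle and 87.8 with 1-SO in round 1, and 77.1 with vehicle and 598 with 1-S in round 2. BAG3, which links HSP70 to selective autophagy, was at 71.5 FPKM with vehicle and 67.1 with 1-SO in round 1, and 88.2 with vehicle and 581 with 1-S in round 2. HSPH1, an HSP110 exchange factor, was at 63.6 FPKM with vehicle and 62.6 with 1-SO in round 1, and 36.3 with vehicle and 254 with 1-S in round 2. In all of these the 1-S library was above its vehicle and the 1-SO library lay within 0.1 of its vehicle on the log2(FPKM + 1) scale, with fitted differences of -2.87, -2.73 and -2.82 (edgeR adjusted p at most 1.6e-07). HSP90AA1, the inducible HSP90, was at 579 FPKM with vehicle and 569 with 1-SO in round 1, and 390.1 with vehicle and 2025 with 1-S in round 2, a fitted difference of -2.28 ± 0.41. The constitutive chaperone HSPA8 was not called at -0.66 ± 0.37, with changes of -0.08 with 1-SO and 0.87 with 1-S. HSF1, the transcription factor of the programme, was at 47.4 FPKM with vehicle and 46.3 with 1-SO in round 1, and 27.6 with vehicle and 31.5 with 1-S in round 2, and the 95% interval of its difference was -0.59 to 0.38.

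**Figure D3:**
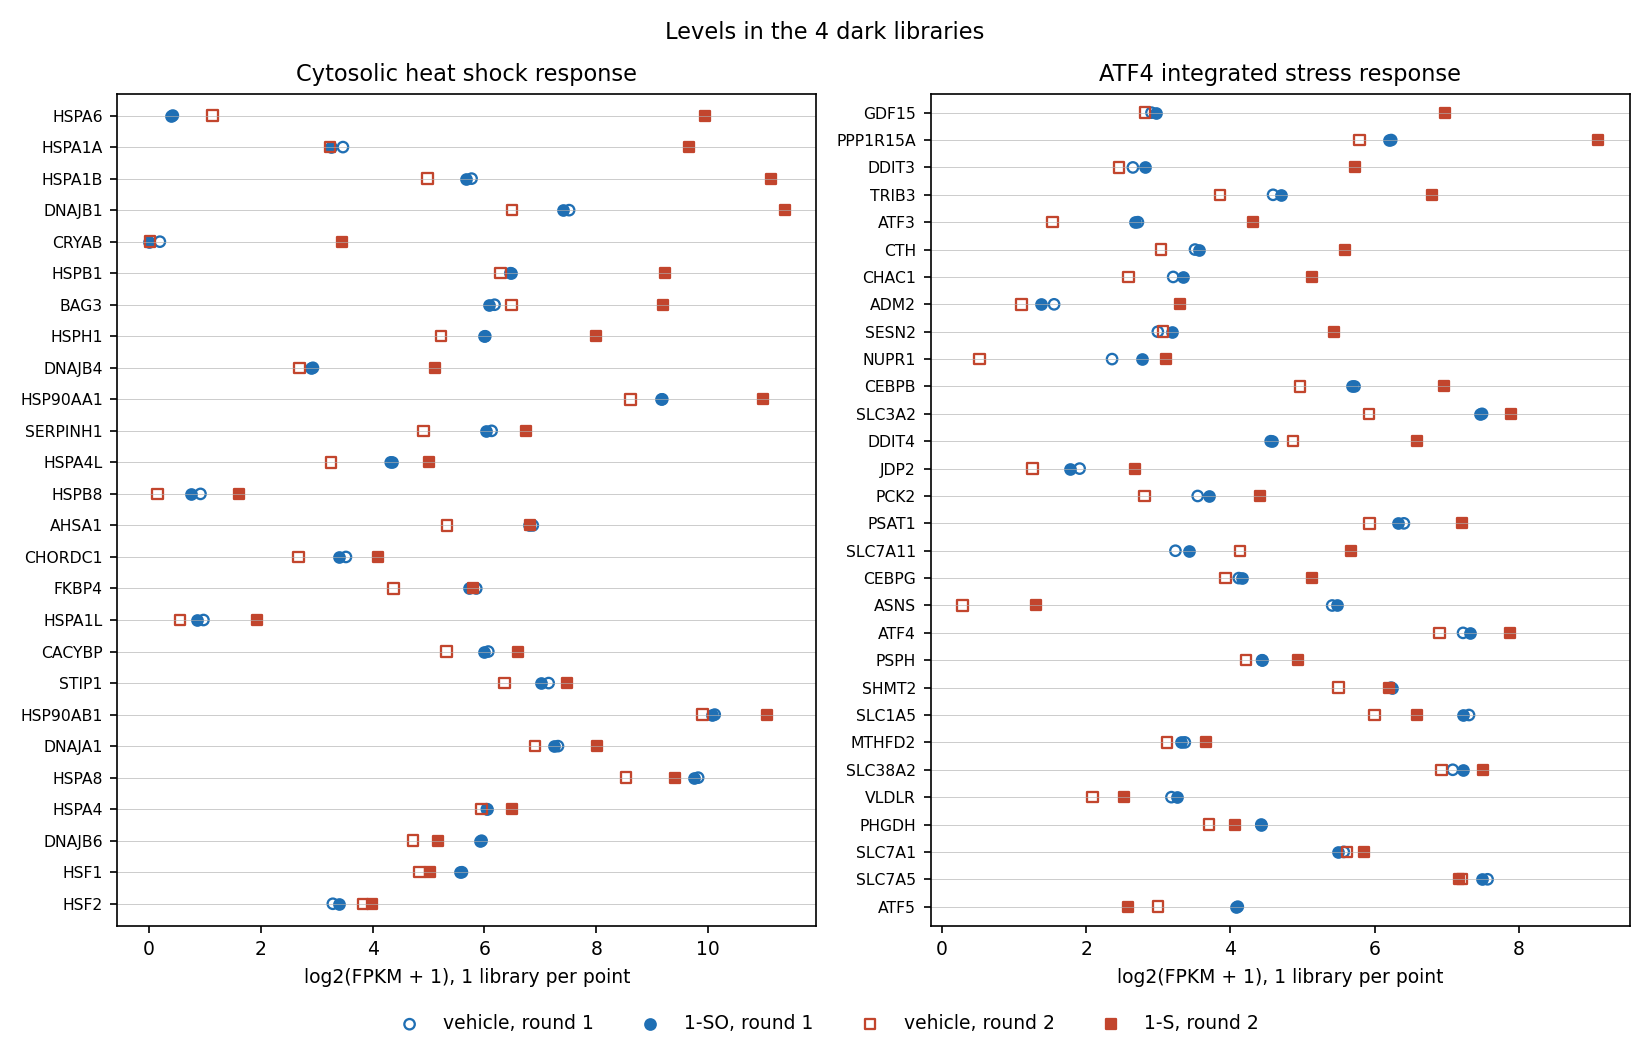
Level of each tested heat shock gene (left) and ATF4 target (right) in the 4 dark libraries, as log2(FPKM + 1), 1 library per point; blue circles are round 1 and red squares round 2, open for vehicle and filled for compound, with genes ordered by the difference between the compounds. Filled and open blue circles nearly coincide in both panels, while the filled red squares lie to the right of the open ones for 26 of 26 heat shock genes and 28 of 30 ATF4 targets.

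Some promoters of the called heat shock genes hold the sequence that HSF1 is known to bind, built from inverted GAA units. The element was searched as GAANNTTC or TTCNNGAA, each of which reads the same on both strands, in the 150 bases before each RefSeq start (GRCh38.p14). It was found in 9 of 28 windows of the 18 matched genes of the 20 called lower (32.1%) and in 6.73% of all 35116 windows of that length. The 3 windows below belong to genes with large differences, and their matches are in capitals: HSPA6 (chr1:161524390-161524539, plus strand), HSPA1A (chr6:31815393-31815542, plus strand) and 1 of the 3 windows of DNAJB1 (chr19:14518398-14518547, minus strand).
HSPA6: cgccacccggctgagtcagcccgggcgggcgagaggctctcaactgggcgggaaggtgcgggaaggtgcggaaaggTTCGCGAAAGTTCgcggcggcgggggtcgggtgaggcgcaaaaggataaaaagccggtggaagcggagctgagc
HSPA1A: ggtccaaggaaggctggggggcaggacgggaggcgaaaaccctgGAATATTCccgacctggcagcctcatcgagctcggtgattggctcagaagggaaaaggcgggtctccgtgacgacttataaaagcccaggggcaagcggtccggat
DNAJB1: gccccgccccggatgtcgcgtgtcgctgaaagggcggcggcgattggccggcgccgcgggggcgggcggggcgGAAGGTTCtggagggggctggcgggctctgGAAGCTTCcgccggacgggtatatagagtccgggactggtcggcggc
In HSPA6 the matches overlap and in DNAJB1 they stand apart. These matches are letters in a window and do not show that a factor was bound. The list was made of genes known for this programme, and only its called members were set against all windows. The share therefore says nothing about the difference between the compounds.

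The targets of ATF4, the factor that is translated when eIF2 is phosphorylated, formed the next group. Of 30 tested, 19 were called lower with 1-SO than with 1-S and none higher, beside 8.77% lower over all genes (dark vehicle alone, 19 and none). The median change was 0.01 with 1-SO and 1.48 with 1-S, and 23 genes rose with 1-S against vehicle.

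GDF15 (ENSG00000130513, chr19:18374731-18389176), a hormone that stressed cells secrete, was at 6.5 FPKM with vehicle and 6.8 with 1-SO in round 1, and 6.03 with vehicle and 125 with 1-S in round 2. The libraries of round 1 lay within 1 FPKM of each other, the 1-S library was far above its vehicle, and the fitted difference was -4.15 ± 0.28 (edgeR adjusted p = 3.1e-11). DDIT3, the factor also called CHOP, was at 5.27 FPKM with vehicle and 6.06 with 1-SO in round 1, and 4.48 with vehicle and 52.2 with 1-S in round 2. TRIB3, a pseudokinase that restrains the same pathway, was at 23.1 FPKM with vehicle and 25.1 with 1-SO in round 1, and 13.5 with vehicle and 109.9 with 1-S in round 2. PPP1R15A, which brings the phosphatase to eIF2, was at 74 FPKM with vehicle and 72.1 with 1-SO in round 1, and 54.2 with vehicle and 546 with 1-S in round 2. ATF3, a stress-induced transcription factor, was at 5.58 FPKM with vehicle and 5.42 with 1-SO in round 1, and 1.9 with vehicle and 18.9 with 1-S in round 2. The fitted differences of these 4 were -3.49, -2.89, -3.47 and -3.53, with edgeR adjusted p of 6.0e-08 at most, and in each the 1-S library was far above its vehicle. The changes of the 4 with 1-SO were 0.17, 0.12, -0.04 and -0.04.

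Enzymes and transporters of the ATF4 list were unequal. CHAC1, which degrades glutathione, differed by -2.70 and CTH, of cysteine synthesis, by -3.01, both called. The serine synthesis enzyme PSAT1 was called at -1.09, while PHGDH, the first enzyme of the same route, was at 20.5 and 20.5 FPKM in round 1 (vehicle, then 1-SO) and 12.1 and 15.7 in round 2 (vehicle, then 1-S) and its interval was -0.73 to 0.27. The amino acid transporter subunit SLC3A2 was called at -1.95, while its partner SLC7A5 was at 188 and 178 FPKM in round 1 (vehicle, then 1-SO) and 147 and 143 in round 2 (vehicle, then 1-S), with an interval of -0.39 to 0.87. ATF4 itself, which is controlled mainly in translation, was at 149 FPKM with vehicle and 158 with 1-SO in round 1, and 118 with vehicle and 235 with 1-S in round 2, and its difference of -0.75 ± 0.27 missed the threshold (edgeR adjusted p = 0.055). NUPR1 had the largest 1-SO change of the list, 0.42, beside 2.59 with 1-S. ASNS differed by -2.81 and was called, but it held 1839 reads in the vehicle library of round 1 and 22 in that of round 2, a gap between the tables that touches its level.

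The element TGATGNAA, searched on both strands as the form of the ATF4 and C/EBP composite site, was found in 3 of 28 windows of the called ATF4 targets (10.7%) and in 1.9% of all windows. CEBPG, a partner of ATF4, has 1 match (chr19:33373963-33374112, plus strand; 1 of its 2 windows), and its levels were 16.3 and 16.8 FPKM in round 1 (vehicle, then 1-SO) and 14.2 and 34 in round 2 (vehicle, then 1-S), a difference of -1.14 ± 0.24 (edgeR adjusted p = 0.0013).
CEBPG: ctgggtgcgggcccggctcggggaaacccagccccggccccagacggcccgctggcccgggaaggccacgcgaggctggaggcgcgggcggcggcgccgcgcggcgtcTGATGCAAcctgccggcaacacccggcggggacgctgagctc
DDIT3 and TRIB3 had no match to these letters in their windows. As with the heat shock genes, only called members of a list of known targets were set against all windows. The share says nothing about the difference between the compounds.

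Of the endoplasmic reticulum stress genes, 7 of 23 were called lower with 1-SO and none higher, beside 8.77% lower over all genes (dark vehicle alone, 5 and none). HSPA5, the HSP70 of the endoplasmic reticulum, was at 297 FPKM with vehicle and 301 with 1-SO in round 1, and 332 with vehicle and 1716 with 1-S in round 2. The 1-S library stood above its vehicle, the changes were 0.02 with 1-SO and 2.37 with 1-S, and the fitted difference was -2.32 ± 0.37 (edgeR adjusted p = 6.4e-05). HERPUD1, a part of the degradation machinery of that compartment, was at 32.3 FPKM with vehicle and 32.3 with 1-SO in round 1, and 16.6 with vehicle and 76.6 with 1-S in round 2, a difference of -2.18 ± 0.24. XBP1, a regulator of the programme, had changes of 0.02 with 1-SO and 1.00 with 1-S and differed by -0.85 ± 0.24 (edgeR adjusted p = 0.013). For 14 of the 23 genes the 95% interval of the difference lay within -1 and 1.

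Of the NRF2 targets, 8 of 25 were called lower with 1-SO and none higher, beside 8.77% lower over all genes (dark vehicle alone, 5 and none). HMOX1, which breaks down haem, was at 6.51 FPKM with vehicle and 5.9 with 1-SO in round 1, and 5.14 with vehicle and 50.2 with 1-S in round 2. It rose with 1-S, and the difference was -3.41 ± 0.28 (edgeR adjusted p = 1.9e-09). The ferritin chains FTH1 and FTL, which store iron, changed by 1.85 and 1.56 with 1-S and by 0.01 and 0.02 with 1-SO, and both differences were called. Both ferritin genes have many processed copies in the genome, so their reads are uncertain. SLC7A11, which imports cystine, was at 8.44 and 9.72 FPKM in round 1 (vehicle, then 1-SO) and 16.6 and 50.1 in round 2 (vehicle, then 1-S) and differed by -2.02 ± 0.34. NFE2L2, the gene of NRF2, was not called at -0.47 ± 0.23.

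Immediate early genes, which cells transcribe within minutes of a signal, were divided. Of 27 tested, 14 were called lower and 2 higher with 1-SO than with 1-S, beside 8.77% and 8.4% of all genes (dark vehicle alone, 14 and 2). FOS, a subunit of AP-1, was at 3.01 FPKM with vehicle and 4.27 with 1-SO in round 1, and 3.52 with vehicle and 77.1 with 1-S in round 2. ARC was at 3.79 FPKM with vehicle and 4.26 with 1-SO in round 1, and 2.37 with vehicle and 50.9 with 1-S in round 2. In both the 1-S library was more than 10 times its vehicle, and the fitted differences were -4.37 ± 0.31 and -4.95 ± 0.36. FOS also held the largest 1-SO change of the list, 0.40. NR4A1 was at 0.451 and 0.337 FPKM in round 1 (vehicle, then 1-SO) and 0.383 and 7.62 in round 2 (vehicle, then 1-S) and FOSB at 0.803 and 0.685 FPKM in round 1 (vehicle, then 1-SO) and 0.726 and 9.27 in round 2 (vehicle, then 1-S), levels under 1 FPKM with vehicle in each round and with 1-SO. DUSP1, a phosphatase that ends MAP kinase signals, was at 22 FPKM with vehicle and 23.5 with 1-SO in round 1, and 22.6 with vehicle and 203 with 1-S in round 2, a difference of -2.87 ± 0.25. The phosphatases DUSP4 and DUSP6, which act on ERK, went the other way: DUSP6 was at 137 FPKM with vehicle and 141 with 1-SO in round 1, and 117 with vehicle and 36 with 1-S in round 2, and the differences of 1.68 ± 0.30 and 1.73 ± 0.27 were called higher with 1-SO (edgeR adjusted p = 2.4e-04 and 5.5e-05).

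Of the interferon-stimulated genes, 9 of 17 were called lower and 1 higher with 1-SO, beside 8.77% and 8.4% of all genes (dark vehicle alone, 7 and 1). IFIT2, which binds viral RNA complexes, was at 12.4 FPKM with vehicle and 14.7 with 1-SO in round 1, and 16.8 with vehicle and 193 with 1-S in round 2. IFIT1 was at 4.48 FPKM with vehicle and 5.04 with 1-SO in round 1, and 7.43 with vehicle and 63.9 with 1-S in round 2. IFIT3 was at 25.7 FPKM with vehicle and 26 with 1-SO in round 1, and 29.5 with vehicle and 185 with 1-S in round 2. The 1-S library was above its vehicle for all 3 genes, and the differences were -3.21, -3.21 and -2.69 (edgeR adjusted p at most 8.3e-09). OASL rose with 1-S as well, at 1.91 FPKM with vehicle and 1.29 with 1-SO in round 1, and 1.73 with vehicle and 23.4 with 1-S in round 2. IRF1, a transcription factor of the interferon response, was not called at 0.05 ± 0.27. OAS3 was the member called higher with 1-SO, at 1.24.

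CDKN1A, the inhibitor of cyclin-dependent kinases, was at 78.2 FPKM with vehicle and 74 with 1-SO in round 1, and 41.7 with vehicle and 185 with 1-S in round 2, and GADD45A, a stress sensor, at 43.8 FPKM with vehicle and 41.7 with 1-SO in round 1, and 24.5 with vehicle and 112 with 1-S in round 2. Both rose with 1-S, and the differences were -2.21 ± 0.26 and -2.14 ± 0.24. Of the NF-kB genes, 3 of 17 were called lower and 2 higher with 1-SO, beside 8.77% and 8.4% of all genes (dark vehicle alone, 2 and 2). TNFAIP3, a feedback inhibitor, differed by -2.38, while the secreted factors CSF2 and LIF differed by 3.41 and 1.52, all called.

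Of the lysosome and autophagy genes, 7 of 27 were called lower and 1 higher with 1-SO, beside 8.77% and 8.4% of all genes (dark vehicle alone, 3 and 1). SQSTM1, an autophagy receptor, was at 114 FPKM with vehicle and 114 with 1-SO in round 1, and 41.4 with vehicle and 112 with 1-S in round 2, and MAP1LC3B, which marks autophagosomes, at 35.8 FPKM with vehicle and 38.5 with 1-SO in round 1, and 23.6 with vehicle and 75.9 with 1-S in round 2. The differences were -1.77 ± 0.31 and -1.74 ± 0.25, beside 1-SO changes of 0.00 and 0.10. Of 6 tested metallothionein and zinc genes, SLC30A1, a zinc exporter, and MTF1, the zinc sensor, were called lower with 1-SO, at -1.15 and -1.08. Of 7 aryl hydrocarbon receptor genes, TIPARP was called lower at -1.19 ± 0.29, a call that was lost with the dark vehicle alone (edgeR adjusted p = 0.24). Lists of 6 and 7 genes are too small to set against the 8.77% of all genes called lower. CYP1A1, the classical target of that receptor, was at 1.76 FPKM with vehicle and 2.26 with 1-SO in round 1, and 2.26 with vehicle and 1.37 with 1-S in round 2, with changes of 0.24 with 1-SO and -0.46 with 1-S and no call.

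Beyond the lists, GADD45G, SNAI1 and RGS2 were among the 12 protein-coding genes with the largest differences on the lower side. SNAI1, a repressor of epithelial genes, was at 0.852 FPKM with vehicle and 1.27 with 1-SO in round 1, and 0.158 with vehicle and 26 with 1-S in round 2, and GADD45G at 0.70 FPKM with vehicle and 0.687 with 1-SO in round 1, and 0.235 with vehicle and 32 with 1-S in round 2. RGS2, which shortens G protein signals, was at 3.72 FPKM with vehicle and 3.85 with 1-SO in round 1, and 1.92 with vehicle and 51 with 1-S in round 2. In each the 1-S library exceeded its vehicle by more than 10 times, and the fitted differences were -6.71 ± 0.53, -7.13 ± 0.63 and -4.89 ± 0.34.

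DNA replication genes led the other direction. Of 34 tested, 27 were called higher with 1-SO than with 1-S and none lower, against 8.4% higher over all genes. With the dark vehicle alone 14 were called higher and none lower. The median change was -0.09 with 1-SO and -0.94 with 1-S, and 29 genes fell with 1-S against vehicle. With 1-SO, 32 of the 34 also lay below vehicle, by at most 0.38, and none passed the test.

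E2F1 (ENSG00000101412, chr20:33675683-33686404), a factor that drives S phase genes, was at 71 FPKM with vehicle and 64.9 with 1-SO in round 1, and 62.2 with vehicle and 13.9 with 1-S in round 2. The 1-S library was far below its vehicle, and the difference was 2.62 ± 0.31 (edgeR adjusted p = 9.2e-07). RRM2, the subunit of ribonucleotide reductase that limits the supply of deoxynucleotides, was at 80.01 FPKM with vehicle and 70.7 with 1-SO in round 1, and 27.7 with vehicle and 6.63 with 1-S in round 2. MCM6 and MCM3 are parts of the helicase that opens replication origins, and MCM6 was at 39.1 FPKM with vehicle and 37.6 with 1-SO in round 1, and 30.6 with vehicle and 8.43 with 1-S in round 2. MCM3 was at 142 FPKM with vehicle and 134 with 1-SO in round 1, and 110.4 with vehicle and 34.5 with 1-S in round 2. The differences were 2.31 ± 0.28 for RRM2, 2.36 ± 0.30 for MCM6 and 2.06 ± 0.30 for MCM3, all called. PCNA, the sliding clamp of the polymerases, was at 193 FPKM with vehicle and 188 with 1-SO in round 1, and 182 with vehicle and 78.4 with 1-S in round 2, a difference of 1.65 ± 0.29. The helicase subunits MCM2, MCM4 and MCM5 differed by 1.93, 1.81 and 2.09, and MCM7 by 1.16. The single-strand binding subunit RPA2 was not called, with levels of 56.9 and 55.3 FPKM in round 1 (vehicle, then 1-SO) and 36.8 and 34.1 in round 2 (vehicle, then 1-S) and an interval of -0.18 to 0.85. CCNE1, the cyclin that starts S phase, ran against the list, with changes of -0.38 with 1-SO and 0.56 with 1-S and no call.

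The E2F site was searched on both strands as TTTCCCGC, TTTGGCGC, TTTCGCGC or TTTGCCGC, which may overlap. It was found in 12 of 30 windows of the 23 matched genes of the 27 called higher (40%) and in 1.8% of all windows of 150 bases. E2F1 (chr20:33686386-33686535, minus strand) and MCM6 (chr2:135876444-135876593, minus strand) are shown as the factor and a target of it that both fell with 1-S, with the matches in capitals.
E2F1: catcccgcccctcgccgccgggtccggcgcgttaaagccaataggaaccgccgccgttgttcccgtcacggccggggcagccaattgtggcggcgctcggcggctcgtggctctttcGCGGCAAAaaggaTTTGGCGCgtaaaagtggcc
MCM6: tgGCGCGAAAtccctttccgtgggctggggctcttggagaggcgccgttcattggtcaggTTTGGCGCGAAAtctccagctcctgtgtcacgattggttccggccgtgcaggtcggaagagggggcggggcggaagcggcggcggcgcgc
E2F1 has 2 matches and MCM6 has 3, some of them on the opposite strand, and MCM3 had none in its windows. The matches do not show that a factor was bound. Replication genes were listed as a known programme, and only called members were set against all windows. Their share says nothing about the difference between the compounds.

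**Figure D4:**
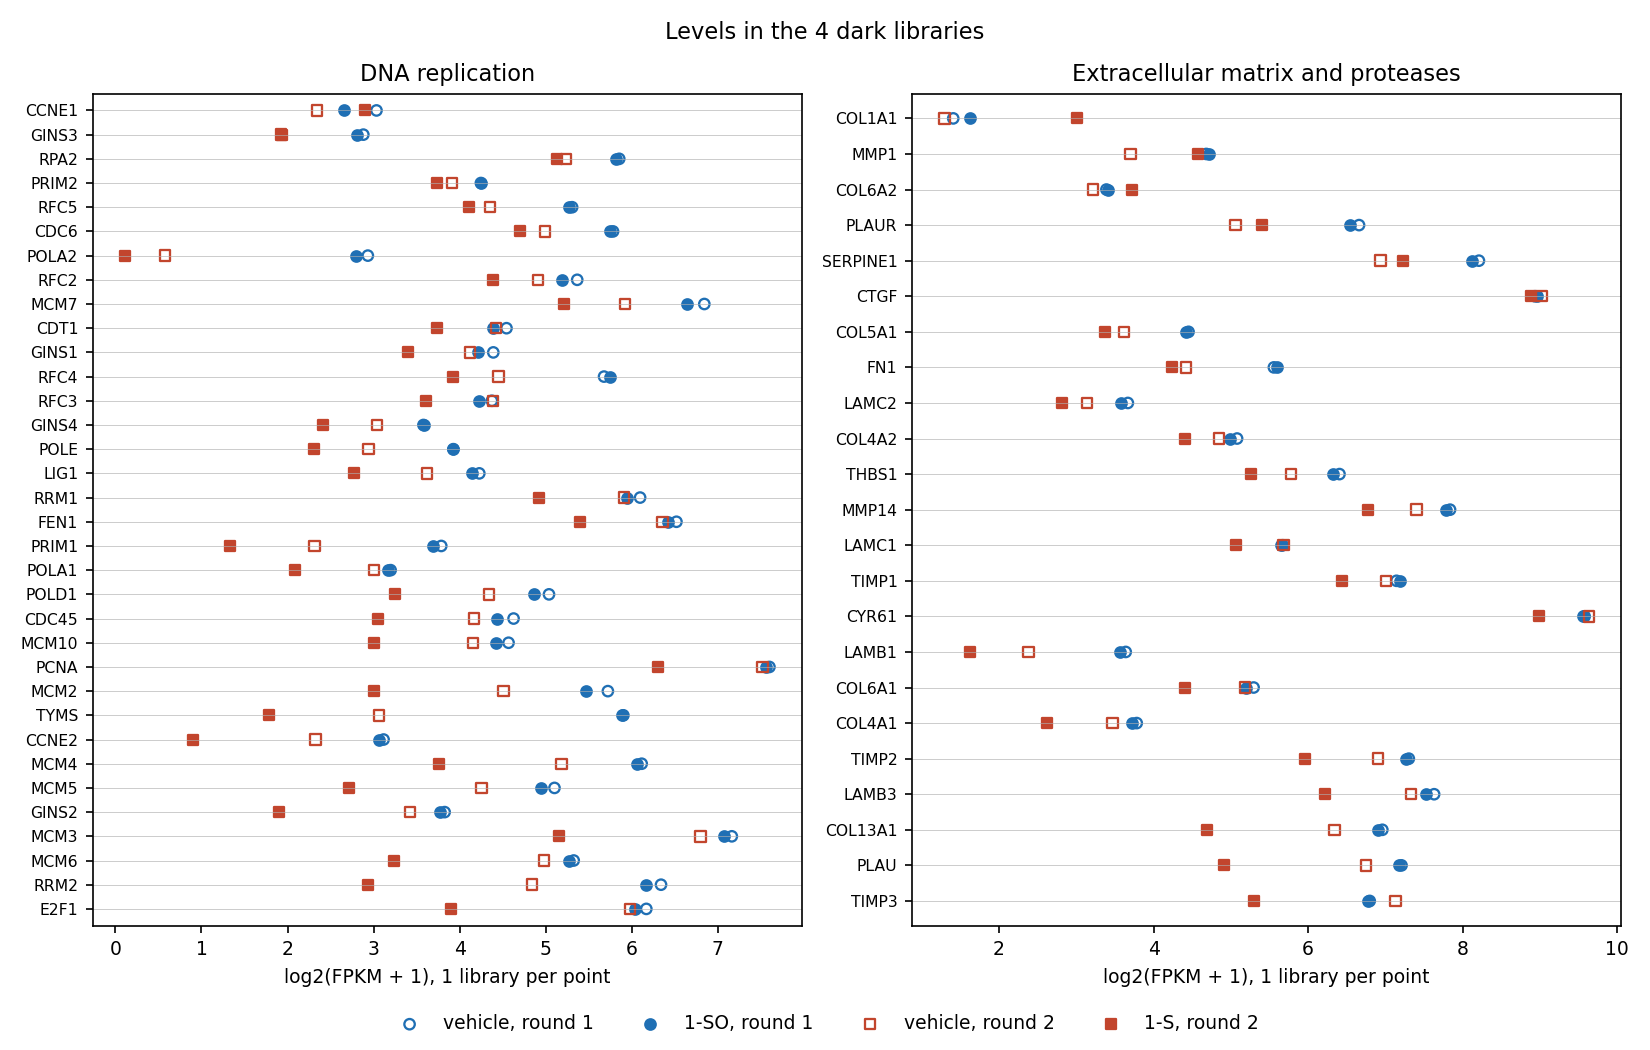
Level of each tested DNA replication gene (left) and extracellular matrix or protease gene (right) in the 4 dark libraries, as log2(FPKM + 1), 1 library per point; blue circles are round 1 and red squares round 2, open for vehicle and filled for compound. The filled red squares lie to the left of the open ones for 32 of 34 replication genes and 18 of 23 matrix genes, and the blue pairs lie close together.

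Of 34 genes of G2 and mitosis, 7 were called higher with 1-SO and none lower, beside 8.4% higher over all genes (dark vehicle alone, 3 and none). For 23 of the 34 the 95% interval of the difference lay within -1 and 1. TOP2A, the topoisomerase of chromosome separation, was at 84.9 FPKM with vehicle and 82.2 with 1-SO in round 1, and 132 with vehicle and 62.9 with 1-S in round 2, and CDK1, the mitotic kinase, at 59.3 FPKM with vehicle and 58.1 with 1-SO in round 1, and 48.2 with vehicle and 29.3 with 1-S in round 2. The differences were 0.98 ± 0.28 and 0.81 ± 0.23, and that of CDK1 was lost with the dark vehicle alone (edgeR adjusted p = 0.13).

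Genes of the extracellular matrix and its proteases were called higher with 1-SO in 10 of 23 cases and lower in 2 (dark vehicle alone, 5 and 1). Over all genes the shares were 8.4% higher and 8.77% lower. PLAU, the urokinase that activates plasminogen, was at 147 FPKM with vehicle and 143 with 1-SO in round 1, and 107 with vehicle and 29.1 with 1-S in round 2. TIMP3, an inhibitor of metalloproteases, was at 110.3 FPKM with vehicle and 109 with 1-SO in round 1, and 139 with vehicle and 38.4 with 1-S in round 2. The differences were 2.42 ± 0.32 and 2.10 ± 0.28, and the 1-S library was below its vehicle for both. The collagen COL13A1 and the laminin LAMB3 differed by 1.89 and 1.20. COL1A1 was called lower with 1-SO, at 1.65 FPKM with vehicle and 2.08 with 1-SO in round 1, and 1.45 with vehicle and 7.09 with 1-S in round 2, and so was MMP1, at -2.18.

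Of 22 glycolysis genes, 9 were called higher and 1 lower with 1-SO, beside 8.4% and 8.77% of all genes (dark vehicle alone, 3 and 1). LDHA, which makes lactate, was at 512 FPKM with vehicle and 497 with 1-SO in round 1, and 229.7 with vehicle and 84.2 with 1-S in round 2. PKM, the pyruvate kinase, was at 789.9 FPKM with vehicle and 779.8 with 1-SO in round 1, and 301 with vehicle and 135 with 1-S in round 2, and ENO1, an enolase, at 1354 FPKM with vehicle and 1284 with 1-SO in round 1, and 767 with vehicle and 348 with 1-S in round 2. These 3 remained called with the dark vehicle alone, and the differences were 1.73 ± 0.32, 1.30 ± 0.35 and 1.35 ± 0.37. The glucose transporter SLC2A3 was the exception, called lower with 1-SO at -2.09 ± 0.26, with changes of 0.05 with 1-SO and 1.75 with 1-S. Of 25 cholesterol synthesis genes, 4 were called higher and none lower with 1-SO, beside 8.4% and 8.77% of all genes (dark vehicle alone, 2 and none). IDI1, an isomerase of the isoprenoid pathway, was called higher, at 39.1 FPKM with vehicle and 40.7 with 1-SO in round 1, and 38.7 with vehicle and 20.8 with 1-S in round 2, a difference of 1.05 ± 0.23. DHCR7, a reductase of the last steps, and ACAT2, which joins acetyl-CoA units, were called higher at 0.85 and 0.81, and both were lost with the dark vehicle alone (edgeR adjusted p = 0.16 and 0.36). Of 23 genes of ribosome assembly, UTP20 and GNL3 were called higher, at 1.34 and 0.70, a count near the 8.4% of all genes, and GNL3 was lost with the dark vehicle alone (edgeR adjusted p = 0.21).

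The protein-coding genes with the largest differences on the higher side were mostly outside the lists. SLCO4A1 (ENSG00000101187, chr20:62642445-62685785), a transporter of organic anions, was at 41.8 FPKM with vehicle and 42.4 with 1-SO in round 1, and 59.3 with vehicle and 4.88 with 1-S in round 2. The 1-S library was far below its vehicle and the libraries of round 1 lay within 1 FPKM of each other, and the difference was 3.75 ± 0.25 (edgeR adjusted p = 3.1e-11). IGFBP4, which binds insulin-like growth factors, was at 1319 FPKM with vehicle and 1277 with 1-SO in round 1, and 1678 with vehicle and 253 with 1-S in round 2. F2RL1, a receptor that proteases activate, was at 103 FPKM with vehicle and 108 with 1-SO in round 1, and 129.6 with vehicle and 27.7 with 1-S in round 2. PLAT, the tissue plasminogen activator, was at 288 FPKM with vehicle and 293 with 1-SO in round 1, and 88.6 with vehicle and 20.7 with 1-S in round 2. SPRY1, a feedback inhibitor of growth factor signals, was at 26.2 FPKM with vehicle and 26.1 with 1-SO in round 1, and 24.7 with vehicle and 5.01 with 1-S in round 2. The 1-S library was below its vehicle for these genes, and the differences of IGFBP4, F2RL1, PLAT and SPRY1 were 2.89 ± 0.36, 2.39 ± 0.25, 2.19 ± 0.29 and 2.34 ± 0.25. LFNG, which modifies Notch, and PLXNA1, a semaphorin receptor, differed by 3.57 and 2.25. SYNJ2, a lipid phosphatase, CST1, a secreted cystatin, and PTGES, which makes prostaglandin E, differed by 2.17, 2.07 and 2.18. PTGES had vehicle levels of 6.12 FPKM in round 1 and 50.7 in round 2, and its difference reversed to -0.70 when the round was left out of the model (edgeR adjusted p = 0.84).

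The mRNAs that mitochondria encode were the only list in which the compounds' medians lay on opposite sides by more than 0.2 each, at 0.24 with 1-SO and -0.34 with 1-S. Mitochondrial genes took 2.58% of the reads with vehicle and 3.02% with 1-SO in round 1, and 2.38% with vehicle and 1.77% with 1-S in round 2. Of the 13 mRNAs, 12 lay above vehicle with 1-SO and 3 with 1-S. For the difference, 3 of the 13 were called higher with 1-SO than with 1-S, beside 8.4% of all genes, and none was called against vehicle with 1-SO. MT-ND6, the complex I subunit and the one mRNA read from the light strand, was at 514 FPKM with vehicle and 614 with 1-SO in round 1, and 326 with vehicle and 95.3 with 1-S in round 2. The 1-S library was below its vehicle and the 1-SO library above its own, and the difference was 2.14 ± 0.24 (edgeR adjusted p = 4.4e-07). MT-CO2, of the cytochrome oxidase, was at 4575 FPKM with vehicle and 5348 with 1-SO in round 1, and 4971 with vehicle and 2082 with 1-S in round 2, and MT-ND3, of complex I, at 1857 FPKM with vehicle and 2236 with 1-SO in round 1, and 1233 with vehicle and 684 with 1-S in round 2. The differences were 1.51 ± 0.37 and 1.43 ± 0.29. MT-ND5 was at 605 FPKM with vehicle and 702 with 1-SO in round 1, and 547 with vehicle and 341 with 1-S in round 2 and just missed the call (edgeR adjusted p = 0.054), which it passed with the dark vehicle alone (0.049). MT-ND1 and MT-ND4L had intervals within -1 and 1, of -0.40 to 0.92 and -0.56 to 0.41. Selection of RNA by its poly-A tail and reads shared with nuclear copies of mitochondrial DNA both touch these levels, and their part was not tested.

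**Figure D5:**
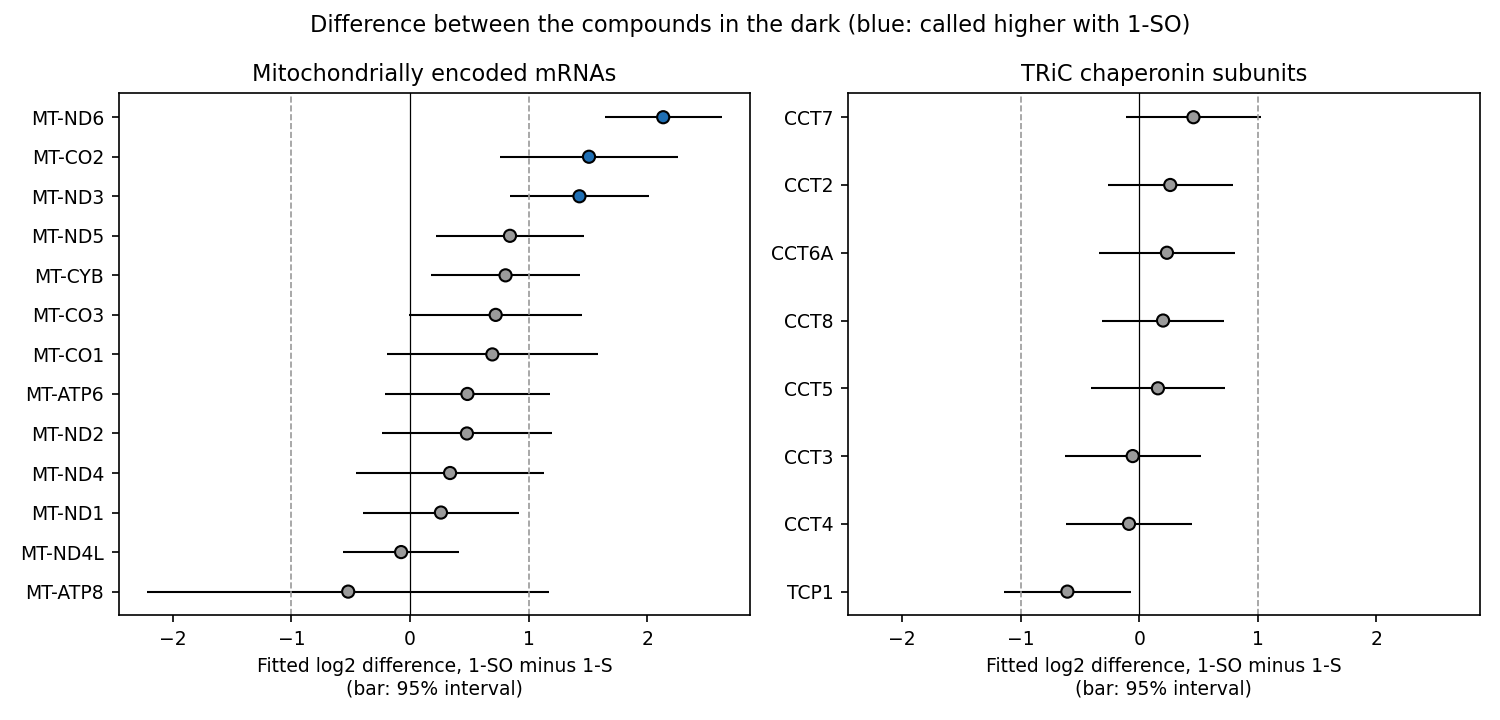
Fitted log2 difference between the compounds, 1-SO minus 1-S, with its 95% interval as a bar, for the 13 mRNAs encoded in mitochondria (left) and the 8 subunits of the TRiC chaperonin (right); blue points are called higher with 1-SO and dashed lines mark -1 and 1. MT-ND6 lies at 2.14 with an interval clear of 1, while 6 of the 8 TRiC subunits have intervals inside the dashed lines.

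Most nuclear genes of the respiratory chain lay on the higher side with 1-SO relative to 1-S, while the share called was near that of all genes. Of 58 tested, 7 were called higher and 1 lower with 1-SO, beside 8.4% and 8.77% of all genes, and with the dark vehicle alone none was called, beside 3.95% and 4.8%. On the log2(FPKM + 1) scale 52 of the 58 differences lay above 0, with a median of 0.28 beside -0.01 over all genes, and the median fitted difference was 0.53 beside 0.00. Against vehicle, 16 of the genes fell and 1 rose with 1-S. The complex I subunits NDUFS5, NDUFB3 and NDUFB4 differed by 0.91, 0.93 and 0.93, and UQCRFS1, the iron-sulfur protein of complex III, by 0.76. The member called lower was NDUFV2, a complex I subunit at 0.565 and 0.597 FPKM in round 1 (vehicle, then 1-SO) and 0.621 and 2.6 in round 2 (vehicle, then 1-S). NDUFS5 was at 249 FPKM with vehicle and 247 with 1-SO in round 1, and 188 with vehicle and 114 with 1-S in round 2. The 1-SO changes of the 58 genes ran from -0.24 to 0.36, and for 17 the interval of the difference lay within -1 and 1, while the rest were called or not bounded. Of 14 mitochondrial chaperones and proteases, HSPD1 and HSPA9 were called lower with 1-SO and TRAP1 higher, counts near the shares of all genes. HSPD1, the HSP60 that folds imported proteins, was at 189 FPKM with vehicle and 184 with 1-SO in round 1, and 111 with vehicle and 258 with 1-S in round 2, and HSPA9, the HSP70 of the matrix, at 124 FPKM with vehicle and 119 with 1-SO in round 1, and 83 with vehicle and 168 with 1-S in round 2. Both rose with 1-S, and the differences were -0.96 ± 0.30 and -0.88 ± 0.28. LONP1, a matrix protease, was not called at -0.46 ± 0.24. TRAP1, an HSP90 of mitochondria, was called at 1.09 ± 0.32 and lost with the dark vehicle alone (edgeR adjusted p = 0.26).

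For many genes the data bounded the difference. The 95% interval lay within -1 and 1 for 5016 of the 12696 genes (39.5%), none of them called, and 5499 genes were neither called nor bounded in this way, with a median distance of 0.60 from the estimate to the end of its interval over all genes. Of the 3926 genes called for 1-S against vehicle, 1761 were not called for the difference, and for 169 of those the interval lay within -1 and 1. Of the genes called for 1-S, 59.6% had a 1-SO change of the same sign as the fitted 1-S change. Over all genes tested, 53.5% had changes of the same sign with both compounds, each against its own dark vehicle. The shares therefore differ in measure.

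The cytosolic chaperonin TRiC, which folds actin and tubulin, gave no call among 8 subunits, and 6 had intervals within -1 and 1. Over all genes 17.2% were called and 39.5% had such intervals, and a list of 8 is too small to set against these shares. CCT3 was at 247 FPKM with vehicle and 238 with 1-SO in round 1, and 109 with vehicle and 125 with 1-S in round 2, an interval of -0.63 to 0.52. CCT4 was at 131 FPKM with vehicle and 126 with 1-SO in round 1, and 119.5 with vehicle and 134 with 1-S in round 2, an interval of -0.62 to 0.45. TCP1, a subunit of the same ring, lay lowest at -0.61 ± 0.26 (edgeR adjusted p = 0.11). Of 28 proteasome subunits, 23 were bounded within -1 and 1. For the difference, 1 was called higher with 1-SO and none lower, beside 8.4% and 8.77% of all genes (dark vehicle alone, 1 and none). The member called was PSMC6, an ATPase of the cap, with a difference of 0.90 ± 0.23. PSMC6 was at 36.2 FPKM with vehicle and 36.6 with 1-SO in round 1, and 14.5 with vehicle and 7.98 with 1-S in round 2. Of 77 cytosolic ribosomal proteins none was called and 55 were bounded, beside 17.2% and 39.5% of all genes. Their median difference was 0.26 in the edgeR fit and -0.04 on the log2(FPKM + 1) scale, which differ both in scaling and in the vehicle libraries used, so the sign of the list is not settled. RPL13A was at 395 FPKM with vehicle and 389 with 1-SO in round 1, and 354 with vehicle and 484 with 1-S in round 2, an interval of -0.85 to 0.44. Among 10 tubulins, whose copies share much sequence, TUBB2A was called lower with 1-SO at -1.13 ± 0.25. TUBB and TUBA1B were called higher at 1.04 and 1.05, both lost with the dark vehicle alone (edgeR adjusted p = 0.17 and 0.34). A list of 10 is too small to set against the 8.77% lower and 8.4% higher of all genes.

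The largest 1-SO changes among protein-coding genes of at least 5 FPKM in all 4 libraries were small and none passed the test against vehicle. DCTN6, a dynactin subunit, was at 6.19 FPKM with vehicle and 9.73 with 1-SO in round 1, and 7.17 with vehicle and 6.74 with 1-S in round 2, a 1-SO change of 0.58. HIST1H1E, a linker histone, changed by 0.49, NMU, a secreted peptide, by -0.47 and ATP5J, a subunit of the ATP synthase, by 0.44. ATP5J was at 16.8 FPKM with vehicle and 23.2 with 1-SO in round 1, and 10.4 with vehicle and 6.5 with 1-S in round 2. Of the 10 genes with the largest 1-SO changes it was the 1 called for the difference between the compounds, beside 17.2% of all genes. Its difference was 1.18 ± 0.33 (edgeR adjusted p = 0.014).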

How the data were processed

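Poly-A RNA of MDA-MB-231 cells was sequenced, per the labels, which name both a NEB and a strand-specific library. No source used here gives the strand setting of the counting. The authors deposited whole-number read counts per gene, not normalized. Recomputing the deposited FPKM values from counts, lengths and totals gave the same numbers. Per the file headers, the authors' comparison tables hold a log2 fold change and p-values for library pairs. The submitters' processing notes name HTSeq 0.6.1, STAR 2.5, edgeR 3.16.5, DESeq2, TopHat and STAR-Fusion, and hg19 and hg38, without roles. Gene models differed between rounds; coordinates printed are those of round 2 (GRCh38).

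The rounds were joined on 45341 shared Ensembl identifiers. The test took the 12696 genes that reached 1 FPKM in 2 or more of all 8 libraries. edgeR 4.0.16 in R 4.3.3, with TMM factors within each round, fitted round, light in vehicle cells and the 4 compound groups (1 residual and 26 prior degrees of freedom, biological coefficient of variation 12%). The round pairs each compound with its vehicle, per the titles and passages; the round differences of dark and UV-A vehicles had r = 0.847 across genes. Standard errors and intervals derive from the F statistic, and 119 genes with a fitted difference too near 0 have none. The calling procedure was tested on simulated counts. These had the same spread for all genes and libraries and no light effect, so they do not check the spread assumed for the compound libraries. Changes use log2(FPKM + 1), which understates those of low genes. Totals of 15.8 to 22.6 M reads limit the precision, and without molecular identifiers reads need not be independent molecules. The members and gene lists were chosen with earlier results of these data known. Named genes are the 12 highest and 12 lowest called protein-coding genes of at least 5 FPKM by difference, up to 5 per list by size, and the regulators of the lists; other list members are named to show where the compounds did not differ or the range within a list, and were chosen after their values were seen. Some genes and 1 list that these rules would name are not reported here. Alternatives were DESeq2 1.42.0, limma 3.58.1, other scalings, filters and pseudocounts, no round term, and leaving out vehicle libraries.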

Additional observations from a re-analysis of the deposited data

How the results depend on the processing

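The count of 2181 genes depended most on the model. Without the round as replicate block the model called 0 genes for the difference (0 higher and 0 lower; 2398 at an unadjusted p under 0.05) and 19 for 1-S against vehicle (19 higher and 0 lower), and PTGES reversed to -0.70. DESeq2 called 634 for the difference (334 higher, 300 lower; 630 shared with the 2181) and 1569 for 1-S (727 and 842). A call given above need not hold with DESeq2: among the named genes, SLC7A11, FTL, SQSTM1, PLAU, MCM6 and MCM3 did not pass. Each compound against its own dark vehicle alone gave 1111 (502 and 609). Leaving out 1 vehicle library at a time used the likelihood ratio test, which called 2455 genes for the difference on all 8 libraries. The omissions gave 1111 to 2482 genes (502 to 1237 higher and 609 to 1245 lower) for the difference. Without either UV-A vehicle the fit is the dark vehicle alone comparison again, since the light term takes up the other UV-A vehicle. Without either dark vehicle the count was 2482, so the omissions are not separate checks. For 1-S they gave 2696 to 3299 (1358 to 1755 higher and 1338 to 1544 lower), and for 1-SO 0 throughout. With limma 2 genes passed for 1-SO (1 higher and 1 lower). The count of genes whose compounds differed by at least 1 was 1735 (655 higher, 1080 lower) with a pseudocount of 0.1 and 298 (125 and 173) with a pseudocount of 5, and 345 were lower among genes of at least 5 FPKM. Other scalings moved the median difference of all genes by less than 0.1. No compound library could be left out, since each is the only one of its group. The cause of these shifts was not tested.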

Other observations

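The nuclear noncoding RNAs MALAT1 and NEAT1, named here after their values were seen, moved with 1-S. MALAT1, a long RNA of nuclear speckles, was at 29.97 FPKM with vehicle and 55.6 with 1-SO in round 1, and 53.8 with vehicle and 196 with 1-S in round 2, and it was the higher with compound in both rounds. Its fitted difference of -1.84 ± 0.42 was called (edgeR adjusted p = 0.0033) and was lost with the dark vehicle alone, at -0.95 (0.2). NEAT1, the scaffold of paraspeckles, was at 9.36 FPKM with vehicle and 11.5 with 1-SO in round 1, and 9.27 with vehicle and 28.8 with 1-S in round 2, a difference of -1.82 ± 0.31 that was called in both comparisons (1.5e-04 and, with the dark vehicle alone, 0.0073 by edgeR). By annotated class, 26 of 431 antisense genes, 20 of 333 lincRNA genes, 22 of 265 processed pseudogenes, 7 of 62 sense intronic genes and 457 of 11256 protein-coding genes lay at least 1 above vehicle on the log2(FPKM + 1) scale with 1-S, without a test, beside 4.29% of all genes. With 1-SO the counts were 0, 2, 4, 0 and 0. The other classes counted were processed transcripts, transcribed unprocessed pseudogenes and unprocessed pseudogenes, with 2 of 72, 3 of 119 and 3 of 62 for 1-S and none for 1-SO.

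The 4 genes called for the difference with the larger change on the side of 1-SO were SEPT14P4, HM13-IT1, ICOSLG and SNRPE, also named after their values were seen. SEPT14P4 had 8 reads with vehicle and 1 with 1-SO in round 1, and HM13-IT1 had 10 and 1. SNRPE, a spliceosome protein, was at 59.98 FPKM with vehicle and 71.5 with 1-SO in round 1, and 33.3 with vehicle and 28.4 with 1-S in round 2, a difference of 0.84 ± 0.28 (edgeR adjusted p = 0.036). ICOSLG held 137 reads with vehicle and 109 with 1-SO in round 1, and 0 with vehicle and 7 with 1-S in round 2.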
